A study of Homo sapiens with 12 samples.

Results

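The 36 genes described here are targets of the transcription factor p53 and regulators of apoptosis, listed by name from what is known of the pathway. The list was chosen with earlier results of these data known. Each of the 36 matched 1 gene identifier among the 57500 genes of the deposited count tables, and all 36 passed the filter on low counts in every comparison. The genes MDM2 and BTG2 mark the group. They were measured by RNA sequencing in 12 libraries of HepG2, a human hepatocellular carcinoma cell line. The libraries form 3 groups of 4 independent replicates. They are WT, the parental control cells, shTST, in which thiosulfate sulfurtransferase (TST) was silenced by a lentiviral shRNA, and overTST, in which TST was overexpressed. TST, also called rhodanese, is a mitochondrial enzyme that converts cyanide to thiocyanate. All 3 groups were kept in 400 µM glycine for 24 h. The transgene was a codon-optimised TST coding sequence behind a CMV promoter, and transduced cells were selected with blasticidin, while no empty-vector or non-targeting control is among the 12 libraries. Transduction and selection therefore cannot be told apart from the change in TST, and whether either line is 1 clone is not given in the sources used here.

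Tumour suppressor p53 is kept low by its own target MDM2, a ubiquitin ligase, and accumulates when DNA damage, ribosome stress or metabolic stress loosens that loop. It then switches on genes that halt the cell cycle, repair DNA, adjust metabolism or promote death. Whether a cell dies is settled largely at the mitochondrial outer membrane, where anti-apoptotic BCL2 proteins restrain the pore formers BAX and BAK1 and the small BH3-only proteins release them. In the liver p53 also acts on glucose and lipid metabolism.

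The libraries held 22911380 to 45120508 counts, with 28866175 to 45120508 in WT, 27527854 to 33865386 in shTST and 22911380 to 27414142 in overTST. Counts for the 36 genes ran from 32, for PMAIP1, to 19266, for BCL2L1. Levels are given as counts per 1000000 (CPM) scaled by the trimmed mean of M values (TMM), replicates 1 to 4 in order, and differences given without a percent sign are log2 fold changes. The 10 hepatocyte markers examined, among them ALB, AFP and HNF4A, were all above 1 CPM in every group. Of 12 markers of other cell types, 4 were above 1 CPM in WT and in shTST, namely COL1A1, PDGFRB, CD68 and PECAM1. In overTST 3 were, all of these but COL1A1. The highest mean of a marker was 21.8 CPM in WT, 16.6 in shTST and 16.3 in overTST. The sum of the 12 was 25.5 to 28.9 CPM in WT, 20.7 to 22.5 in shTST and 21.8 to 23.96 in overTST. KDR, MYOD1 and NEUROD1 were at 0 in all groups. Mitochondrially encoded genes took 6.91 to 11.98% of counts in WT, 6.84 to 8.65% in shTST and 10.8 to 11.7% in overTST. Of the 10 hepatocyte markers 4 rose and 2 fell in shTST, which is 60% beside 16.1% of all genes tested. In overTST 2 rose and 2 fell, which is 40% beside 33.9%. Their values ran from −0.33 to 0.49 in shTST and from −0.55 to 0.24 in overTST. Of the 4 other markers tested 1 fell in shTST (25%) and 1 rose and 1 fell in overTST (50%). The part of these differences in the results was not tested.

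TST itself was measured first. It was at 47.2, 47.5, 52.8 and 48.5 CPM in WT and at 32.99, 33.6, 36.6 and 33.5 in shTST, and the shTST values were all under those of WT (log2 fold change −0.52, SE 0.055, adjusted p = 3.20e-06 by edgeR's quasi-likelihood test, and p = 0.0286 by the two-sided exact permutation test, the smallest that 4 against 4 libraries allow). In overTST it was at 51.8, 56.04, 61.6 and 62.1 CPM, which overlapped with WT (log2 fold change 0.24, SE 0.062, adjusted p = 0.00384, exact permutation p = 0.0571). After a correction for gene length the overTST difference was 0.097 with an adjusted p of 0.201. Because the transgene was codon-optimised, these counts need not include its transcripts and are no full check of the overTST label.

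Promoter sequence describes these genes without use of their counts. A RefSeq window of 300 bases, from 250 before to 50 after the annotated start on GRCh38.p14, was at hand for 29 of the 36 genes. The 20-base p53 consensus was searched on both strands with at most 3 mismatches and no spacer, and alternative windows of 1 gene were pooled. Such a site was found in 9 of the 29 genes (31.0%), against 6.39% of the 27305 genes with a window. Counted by window and not by gene it was in 5.2% of all 35116 windows, which is no like measure to the 31.0%. With at most 2 mismatches it was found in 4 of the 29, against 0.82% of genes, and with at most 4 in 16, against 29.9%. An exact copy of the 10-base unit, which the consensus repeats, was found in 8 of the 29 (27.6%), against 8.06% of genes. The 29 genes had 46 windows and the 27305 genes 35116, and a gene with more windows has more chances of a site. As the list was drawn from known p53 targets, a higher share of sites than over all genes is no independent result. The limit of 3 mismatches was set after the data were seen. The 9 sites are shown because they are the stretch of each promoter nearest to the p53 consensus, with 5 flanking bases on either side and the 20 bases of the match in capitals, 5′ to 3′ on the strand of the gene.
MDM2, chr12:68808918-68808947, + strand: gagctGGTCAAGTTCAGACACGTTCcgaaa
DDB2, chr11:47214964-47214993, + strand: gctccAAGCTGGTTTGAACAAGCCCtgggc
FAS, chr10:88991304-88991333, + strand: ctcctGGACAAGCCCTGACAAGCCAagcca
AEN, chr15:88621301-88621330, + strand: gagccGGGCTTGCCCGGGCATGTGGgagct
RPS27L, chr15:63157522-63157551, − strand: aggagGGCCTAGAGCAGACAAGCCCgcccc
SESN1, chr6:109009013-109009042, − strand: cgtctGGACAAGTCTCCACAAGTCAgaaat
XPC, chr3:14178565-14178594, − strand: aagtgGAATTTGCCCAGACAAGCAAcatgg
FDXR, chr17:74872991-74873020, − strand: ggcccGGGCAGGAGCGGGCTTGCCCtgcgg
PMAIP1, chr18:59899806-59899835, + strand: gtcggGAGCGTGTCCGGGCAGGTCGcgctc
The MDM2 site lies in the windows of its internal promoter and not in those of its upstream promoter. A match is a description of letters, and the absence of one says only that these letters are not in this window. Of the 9 genes with a site, 3 rose in shTST and none fell, and in overTST 2 rose and 1 fell. Of the 20 genes with a window and no such site, 7 rose and 2 fell in shTST, and 8 rose and 3 fell in overTST. Over all genes tested 6.69% rose and 9.4% fell in shTST, and 15.7% rose and 18.2% fell in overTST. A difference between genes with and without a site was not tested. BTG2, CDKN1A, POLH and PPM1D, which all rose in shTST, have no match in their windows.

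Compared with WT, 3 of the 4 feedback regulators of p53 and 4 of the 6 genes of cell cycle arrest and growth control rose in shTST cells. MDM2 was 29.2% higher, BTG2 46.96% higher and CDKN1A, which encodes the cell cycle inhibitor p21, 23.8% higher, while BCL2L1, which encodes the survival protein BCL-XL, was 13.1% lower. Of the 36 genes, 12 rose and 2 fell, which together is 38.9%. Among all 14584 genes tested in this comparison 16.1% changed, 6.69% being higher and 9.4% lower. As the list was chosen with earlier results of these data known, these shares are a description and no test of enrichment. The median log2 fold change of the 36 genes was 0.11, against 0.004 over all genes, and no member reached 1.5-fold in any comparison. The groups did not overlap for 13 of the 36 genes (36.1%), against 19.1% of all genes. Of all calls in this comparison 41.6% were higher with TMM and 52.7% with upper-quartile scaling, which left the members at 12 higher and 1 lower. As these are bulk samples, a change in RNA per cell and a change in the share of cells that express a gene cannot be told apart.

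In overTST cells 12 of the 36 genes rose and 5 fell against WT, which together is 47.2%. The background was higher here, with 33.9% of 14421 genes changed, 15.7% higher and 18.2% lower. These shares too are a description, as the list was chosen with earlier results known. MDM2 was 24.9% higher, BTG2 35.9% higher and CDKN1A 30.1% higher, and RPS27L, a p53-induced ribosomal protein paralogue, was 37.2% higher. On the lower side were SPATA18, a regulator of mitochondrial quality, at 26.8% below WT and RRM2B, a p53-induced subunit of ribonucleotide reductase, at 22.9% below. The median over the 36 genes was 0.093, against 0.0019 over all genes. The groups did not overlap for 14 of the 36 (38.9%), against 30.4% of all genes. Both comparisons use the same 4 WT libraries, so their values are set side by side and their likeness is no separate result.

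**Figure D1:**
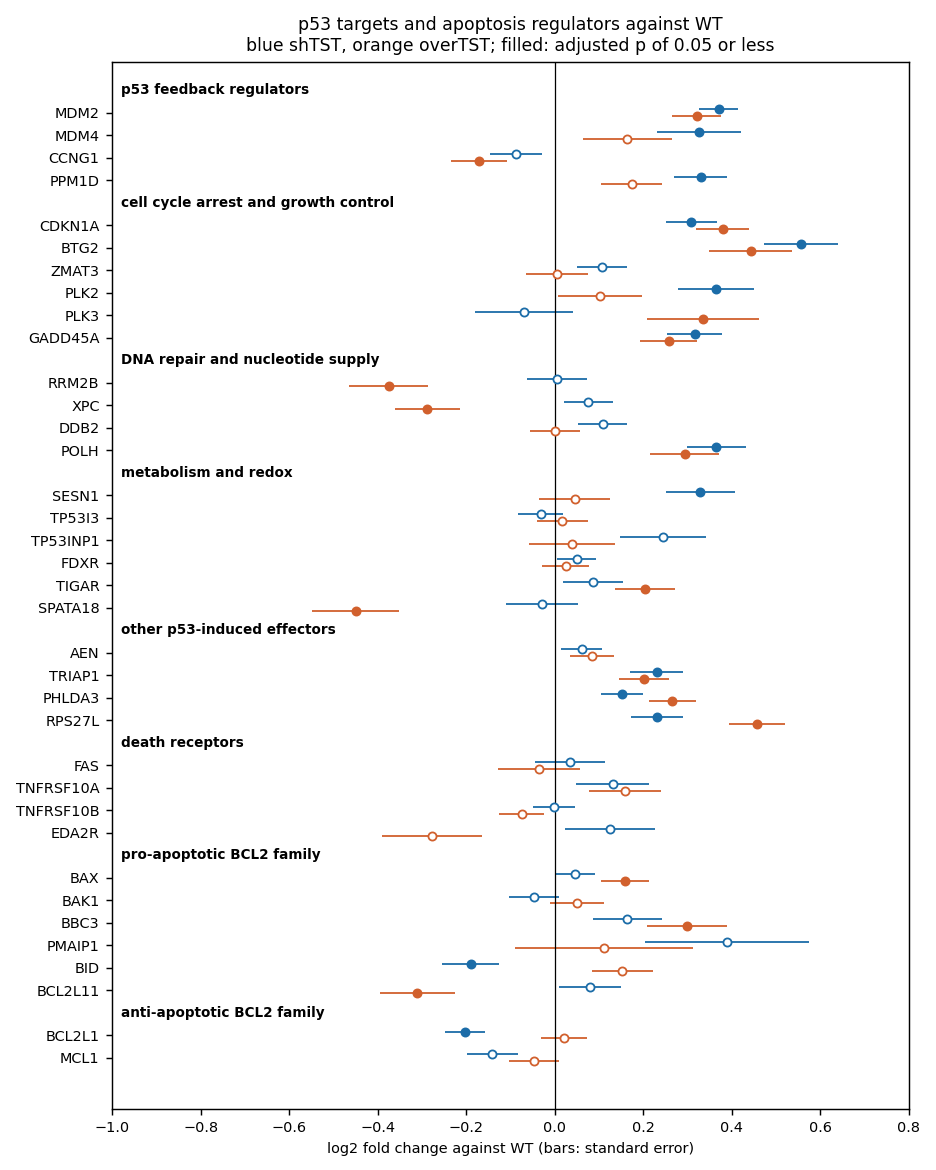
Log2 fold change against WT of all 36 genes, grouped by role, for shTST (blue) and overTST (orange); bars are standard errors, and filled points passed an adjusted p of 0.05 or less. MDM2, CDKN1A, BTG2, GADD45A and POLH lie to the right in both lines, SPATA18, RRM2B, XPC and BCL2L11 are filled on the left in orange, and no death receptor is filled.

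Of the 4 feedback regulators of p53, MDM2 (chr12:68808176-68850686, + strand) rose in both lines. It was at 92.97, 86.1, 87.8 and 93.3 CPM in WT, 120.1, 114, 116 and 115 in shTST and 121, 105, 118 and 106 in overTST. Every library of either line lay above every WT library, and the shTST libraries lay close together (mean 116 ± 2.74 CPM, SD, n = 4) while those of overTST split into a higher and a lower pair. The log2 fold change was 0.37 in shTST (SE 0.044, adjusted p = 1.22e-05) and 0.32 in overTST (SE 0.056, adjusted p = 1.01e-04). Of its exonic bases 9.22% are shared with overlapping genes. PPM1D (chr17:60600183-60666280, + strand) encodes the phosphatase WIP1, which switches p53 and its activating kinases off again. Its level was 31.7, 32.3, 26.9 and 30.7 CPM in WT, 38.6, 38.3, 39.5 and 36.6 in shTST and 37.02, 31.6, 34.4 and 34.2 in overTST. The shTST libraries were all above WT (log2 fold change 0.33, SE 0.06, adjusted p = 7.38e-04), whereas overTST overlapped with WT at 1 library and just missed the threshold (0.17, SE 0.069, adjusted p = 0.0543). MDM4, the MDM2 relative that masks the activation domain of p53, also rose in shTST (log2 fold change 0.33, SE 0.095, adjusted p = 0.0218), a call lost when WT replicate 3, WT replicate 4 or shTST replicate 1 was left out, and it has a named pseudogene. Cyclin G1, the product of CCNG1 (chr5:163437569-163446151, + strand), guides a phosphatase to MDM2. CCNG1 was at 141, 125, 147 and 137 CPM in WT, 132, 142, 114 and 129 in shTST and 136, 106, 122 and 123 in overTST, with overlap among all groups. It was lower in overTST (log2 fold change −0.17, SE 0.064, adjusted p = 0.0391), a call lost without any 1 of 6 of the 8 libraries, and was −0.088 in shTST (adjusted p = 0.328).

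Among the genes of cell cycle arrest and growth control, 4 of 6 rose in shTST and 4 of 6 in overTST, where 6.69% and 15.7% of all genes tested were higher. CDKN1A (chr6:36676460-36687339, + strand) was at 56.8, 68.9, 71.3 and 66.95 CPM in WT, 81.8, 83.01, 83.9 and 77.99 in shTST and 86.3, 83.5, 88.6 and 84.8 in overTST. WT replicate 1 was the lowest of all, and no library of either line came down to the WT range. The log2 fold change was 0.31 in shTST (SE 0.057, adjusted p = 9.51e-04) and 0.38 in overTST (SE 0.06, adjusted p = 3.42e-05). BTG2 (chr1:203305491-203309602, + strand) encodes an antiproliferative protein that works with the CCR4-NOT deadenylase. It was at 12.2, 10.3, 13.04 and 13.5 CPM in WT, 18.6, 16.6, 19.3 and 17.1 in shTST and 16.1, 15.3, 15.8 and 19.1 in overTST, again without overlap with WT. Its log2 fold change in shTST was 0.56 (SE 0.083, adjusted p = 1.28e-04), the highest of the 36 genes in that comparison, and in overTST 0.44 (SE 0.093, adjusted p = 6.96e-04). GADD45A, a stress sensor of growth arrest and repair, rose by 0.32 in shTST and 0.26 in overTST (adjusted p = 0.00162 and 0.00334), and its overTST value was 0.12 (adjusted p = 0.133) with the gene length correction, an offset from the length trend of each library, which ended that call. The checkpoint kinase genes PLK2 and PLK3 differed between the lines. PLK2 rose in shTST (log2 fold change 0.36, adjusted p = 0.00569) and was 0.10 in overTST (adjusted p = 0.44). PLK3 rose in overTST (log2 fold change 0.33, adjusted p = 0.0428) with overlapping groups, a call lost when any 1 of 5 libraries was left out and with the gene length correction, and was −0.07 in shTST (adjusted p = 0.726). ZMAT3, an RNA-binding zinc finger protein, passed in neither.

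**Figure D2:**
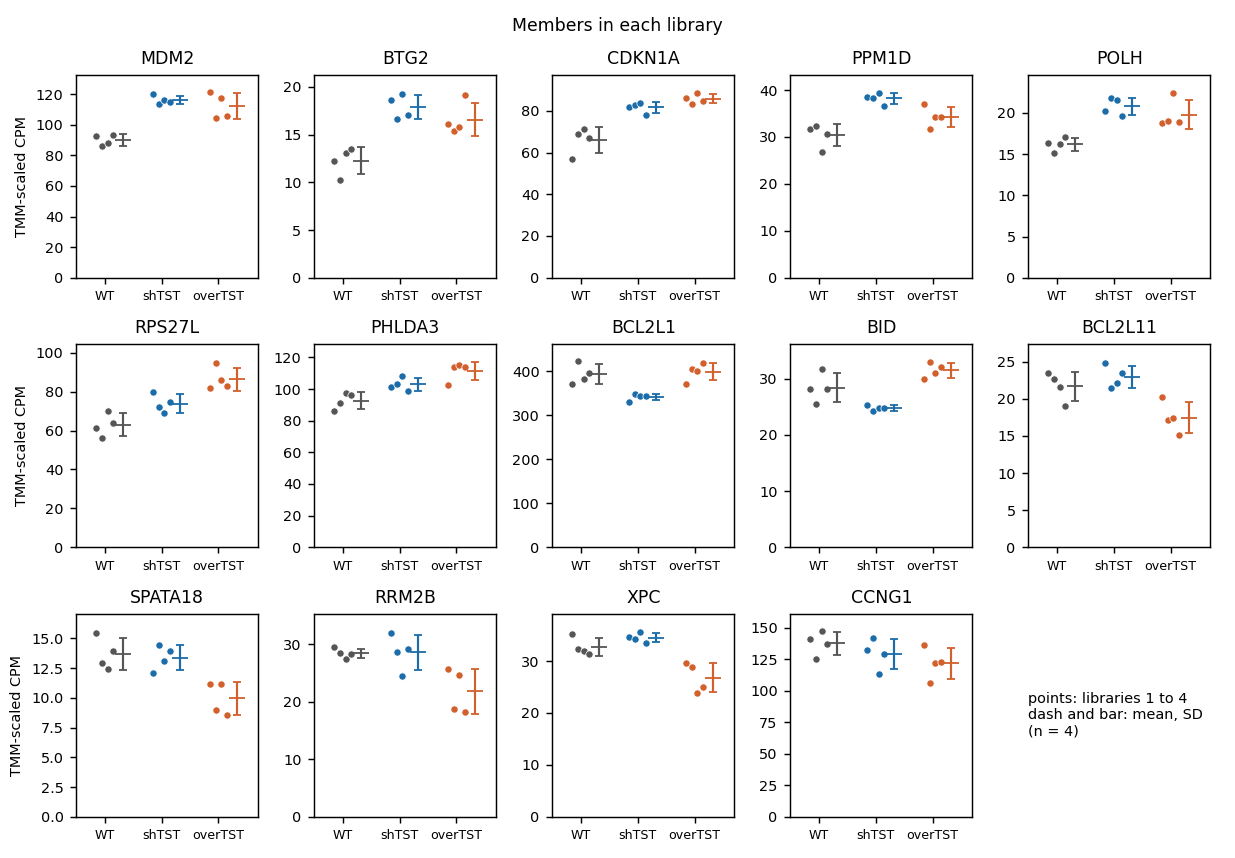
TMM-scaled CPM of 14 of the 36 genes in each of the 4 libraries of WT (grey), shTST (blue) and overTST (orange), on linear axes that start at 0; points are libraries 1 to 4, and the dash and bar are the mean and SD (n = 4). MDM2, BTG2, CDKN1A and POLH lie above WT in all libraries of both lines, BCL2L1 and BID are lowest in shTST, and SPATA18, RRM2B and XPC are lowest in overTST.

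Of the 4 genes of DNA repair and nucleotide supply, 1 rose in shTST, and in overTST 1 rose and 2 fell. Of all genes tested 6.69% were higher in shTST, and in overTST 15.7% were higher and 18.2% lower. POLH (chr6:43576150-43615660, + strand), the translesion polymerase that copies past ultraviolet lesions, was at 16.3, 15.1, 16.3 and 17.1 CPM in WT, 20.2, 21.8, 21.6 and 19.6 in shTST and 18.7, 19.1, 22.5 and 18.9 in overTST. Both lines lay above WT throughout, with a log2 fold change of 0.37 in shTST (SE 0.066, adjusted p = 7.38e-04) and 0.29 in overTST (SE 0.077, adjusted p = 0.00465), and the gene has a named pseudogene. RRM2B supplies deoxyribonucleotides outside S phase. Its level was 29.4, 28.4, 27.4 and 28.4 CPM in WT, 31.99, 28.6, 24.4 and 29.2 in shTST and 25.8, 18.7, 24.6 and 18.2 in overTST. The overTST libraries fell below all WT libraries (log2 fold change −0.38, SE 0.089, adjusted p = 0.00195) while those of shTST lay on both sides of WT (0.0054, adjusted p = 0.969). XPC (chr3:14145147-14178783, − strand), which recognises damage in nucleotide excision repair, was at 35.3, 32.4, 31.9 and 31.4 CPM in WT, 34.6, 34.2, 35.7 and 33.5 in shTST and 29.7, 28.8, 23.8 and 24.9 in overTST. It too fell in overTST without overlap (log2 fold change −0.29, SE 0.073, adjusted p = 0.0034) and was 0.076 in shTST (adjusted p = 0.38). Of the exonic bases of XPC 30.4% are shared with genes on the opposite strand, and whether the counting used strand is not given in the sources used here. DDB2, the ultraviolet damage sensor, was 0.11 in shTST (adjusted p = 0.192) and −0.00033 in overTST (adjusted p = 0.997).

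Metabolic and redox targets changed singly. SESN1 encodes sestrin 1, which restrains mTORC1, and rose in shTST (log2 fold change 0.33, SE 0.078, adjusted p = 0.00593) but was 0.045 in overTST (SE 0.08, adjusted p = 0.705). TIGAR, a phosphatase that slows glycolysis, rose in overTST (log2 fold change 0.20, SE 0.068, adjusted p = 0.0229), a call lost without any 1 of 3 libraries, and was 0.086 in shTST (adjusted p = 0.43). SPATA18 (chr4:52051331-52097292, + strand), also known as Mieap, was at 15.5, 12.9, 12.4 and 13.9 CPM in WT, 12.1, 14.4, 13.1 and 13.97 in shTST and 11.1, 8.98, 11.2 and 8.59 in overTST. All overTST libraries were below all others, and the fall was the deepest among the 36 genes in either comparison with WT (log2 fold change −0.45, SE 0.099, adjusted p = 0.00104), against −0.029 in shTST (adjusted p = 0.85). TP53I3, TP53INP1 and FDXR, which encode a quinone oxidoreductase, a stress-induced nuclear protein and ferredoxin reductase, passed in neither comparison.

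Of the 4 remaining p53-induced effectors, 3 rose in shTST and 3 in overTST, before any correction for gene length. Of all genes tested 6.69% were higher in shTST and 15.7% in overTST. RPS27L (chr15:63125872-63158021, − strand) was at 61.5, 56.4, 70.3 and 64.2 CPM in WT, 80.02, 72.2, 68.99 and 74.5 in shTST and 82.1, 94.8, 85.9 and 82.9 in overTST. The overTST libraries stood above all WT and all shTST libraries, whereas shTST replicate 3 reached down into the WT range. Its log2 fold change was 0.23 in shTST (SE 0.06, adjusted p = 0.0108) and 0.46 in overTST (SE 0.063, adjusted p = 6.71e-06). PHLDA3 (chr1:201464383-201469237, − strand), which competes with AKT for membrane lipids, was at 85.8, 91.2, 97.7 and 96.1 CPM in WT, 102, 103, 108 and 98.8 in shTST and 103, 114, 115 and 114 in overTST. Neither line overlapped with WT, and the log2 fold change was 0.15 in shTST (SE 0.048, adjusted p = 0.0329) and 0.27 in overTST (SE 0.054, adjusted p = 4.98e-04). The shTST call of PHLDA3 was lost when any 1 of 5 libraries was left out, and 19.1% of its exonic bases are shared with another gene. TRIAP1, a small survival factor of the mitochondrial intermembrane space, rose by 0.23 in shTST and 0.20 in overTST (adjusted p = 0.0113 and 0.00755), the first of these lost without shTST replicate 1 and the second, at 0.033 (adjusted p = 0.677), with the gene length correction, and it has a named pseudogene. AEN, an apoptosis-enhancing nuclease, was 0.06 in shTST and 0.084 in overTST and passed in neither, although with the gene length correction it was 0.15 in overTST (adjusted p = 0.0195).

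Genes of the death machinery were next. None of the 4 death receptors, FAS, TNFRSF10A, TNFRSF10B and EDA2R, passed edgeR's test in either comparison with WT, nor did any by DESeq2 or limma-voom. Of all genes tested by edgeR 16.1% changed in shTST and 33.9% in overTST. At an unadjusted p under 0.05 the count of death receptors was 0 in shTST and 1 in overTST, EDA2R at −0.28 (SE 0.11, adjusted p = 0.0599). All EDA2R libraries of overTST lay below those of WT, at 4.79 to 5.78 CPM against 5.91 to 7.13. Of the pore formers, BAX was at 0.046 in shTST (adjusted p = 0.524) and rose by 0.16 in overTST with overlapping groups (adjusted p = 0.0281), a call lost without any 1 of 5 libraries and with the gene length correction, while BAK1 passed in neither. Of the BH3-only genes, BBC3, which encodes PUMA, rose in overTST (log2 fold change 0.30, SE 0.091, adjusted p = 0.013), a call lost without WT replicate 1 or overTST replicate 4. PMAIP1, which encodes NOXA, was the most weakly counted of the 36 and had the largest errors (0.39, SE 0.18, in shTST and 0.11, SE 0.20, in overTST), and a difference of this size did not pass at this depth.

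BID (chr22:17734138-17774770, − strand), which carries death receptor signals to mitochondria, was at 28.1, 25.5, 31.7 and 28.2 CPM in WT, 25.4, 24.2, 24.9 and 24.8 in shTST and 29.9, 33.04, 30.99 and 32.1 in overTST. The shTST libraries were all below WT, only just so at WT replicate 2, and close to each other. BID fell in shTST by this measure (log2 fold change −0.19, SE 0.065, adjusted p = 0.0475), yet the call was lost when any library but WT replicate 2 was left out, and with limma-voom and with upper-quartile normalization. In overTST it was 0.15 (adjusted p = 0.092). BCL2L11 (chr2:111119378-111168447, + strand) encodes BIM. It was at 23.5, 22.7, 21.6 and 19.05 CPM in WT, 24.9, 21.4, 22.1 and 23.5 in shTST and 20.2, 17.1, 17.4 and 15.2 in overTST, where overTST replicate 1 lay above WT replicate 4. It fell in overTST (log2 fold change −0.31, SE 0.085, adjusted p = 0.0062) and was 0.08 in shTST (adjusted p = 0.489). Of the anti-apoptotic genes, BCL2L1 (chr20:31664452-31723989, − strand) was at 371, 423, 382 and 396 CPM in WT, 331, 348, 344 and 344 in shTST and 372, 405, 399.6 and 418 in overTST. The shTST libraries lay below every other library, which gave a log2 fold change of −0.20 (SE 0.045, adjusted p = 0.00411), and overTST was at 0.021 (adjusted p = 0.794). Its antisense neighbour ABALON shares 43% of its exonic bases, so without strand their reads cannot be told apart. MCL1, the other survival gene of this family measured here, was −0.14 in shTST (SE 0.057, adjusted p = 0.0938) and −0.047 in overTST (adjusted p = 0.564).

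In all, 13 of the 36 genes passed in neither comparison with WT. Of all genes tested 16.1% passed in shTST and 33.9% in overTST, and the share that passed in neither was not counted. The 13 members are AEN, BAK1, DDB2, EDA2R, FAS, FDXR, MCL1, PMAIP1, TNFRSF10A, TNFRSF10B, TP53I3, TP53INP1 and ZMAT3. Their log2 fold changes ran from −0.14 to 0.39 in shTST and from −0.28 to 0.16 in overTST, with standard errors of 0.044 to 0.18 and 0.051 to 0.20.

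Levels per exonic length place the changes on the scale of expression. The median over the 36 genes was 6.21 CPM per kb in WT, 6.84 in shTST and 6.41 in overTST. BCL2L1 was the highest in every group (119, 103 and 120.3 CPM per kb), followed by BAX (79.3, 81.8 and 88.5) and FDXR (48.4, 50.1 and 49.3). MDM4 was the lowest (0.584, 0.736 and 0.657), next to PMAIP1 (0.654, 0.851 and 0.702). Between those ends lay CDKN1A at 21.6, MDM2 at 6.79 and BTG2 at 4.44 CPM per kb in WT. Over the 36 genes the median coefficient of variation between replicates was 6.61% in WT, 5.79% in shTST and 6.99% in overTST.

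**Figure D3:**
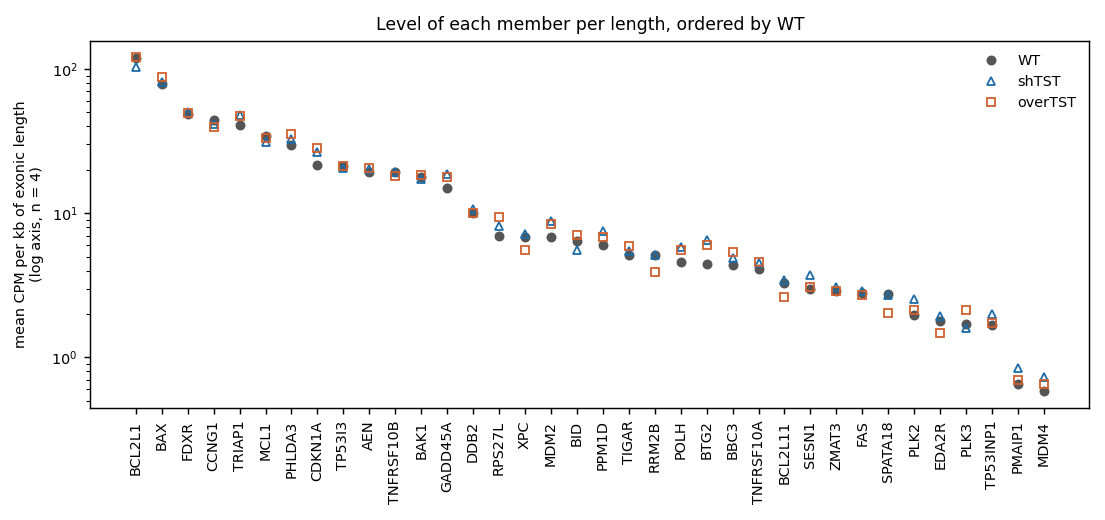
Mean CPM per kb of exonic length (log axis, n = 4 libraries per group) of each of the 36 genes in WT, shTST and overTST, ordered by the level in WT. Levels span from about 119 for BCL2L1 to 0.584 for MDM4 in WT, and within each gene the groups differ by less than 1.5-fold.

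The direct test of both lines, in 1 fit of all 12 libraries, asked where shTST and overTST differed from each other. Of the 36 genes, 7 were higher and 4 lower in shTST than in overTST, which is 30.6%, against 33% of 14883 genes over all, 16.9% higher and 16.1% lower. The groups did not overlap for 10 of the 36 (27.8%), against 29.2% of all genes, so the share of members that differed was near the background. The higher ones were SPATA18 (0.42, SE 0.096, adjusted p = 0.00141), EDA2R (0.40, SE 0.11, adjusted p = 0.00641), BCL2L11 (0.39, SE 0.082, adjusted p = 6.32e-04), RRM2B (0.38, SE 0.091, adjusted p = 0.00224) and XPC (0.36, SE 0.067, adjusted p = 1.87e-04). SESN1 (0.28, adjusted p = 0.00978) and PLK2 (0.26, adjusted p = 0.02) completed them, and were lost without shTST replicate 1 and without overTST replicate 4. The lower ones were PLK3 (−0.40, SE 0.13, adjusted p = 0.0146), which was lost without either of those libraries, BID (−0.34, SE 0.065, adjusted p = 2.38e-04), RPS27L (−0.23, SE 0.061, adjusted p = 0.00597) and BCL2L1 (−0.22, SE 0.047, adjusted p = 7.27e-04). The difference of MDM2 was 0.049 (SE 0.05, adjusted p = 0.496) and turned to −0.11 with the gene length correction described next (adjusted p = 0.0873). For BTG2 the difference was 0.11 (SE 0.087, adjusted p = 0.345) and for CDKN1A −0.071 (SE 0.056, adjusted p = 0.351). A p above the threshold does not show that the lines are alike. Of the 4 feedback regulators none passed in the direct test by edgeR, DESeq2 or limma-voom, and 1, PPM1D at 0.16 (adjusted p = 0.0562), had an unadjusted p under 0.05.

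**Figure D4:**
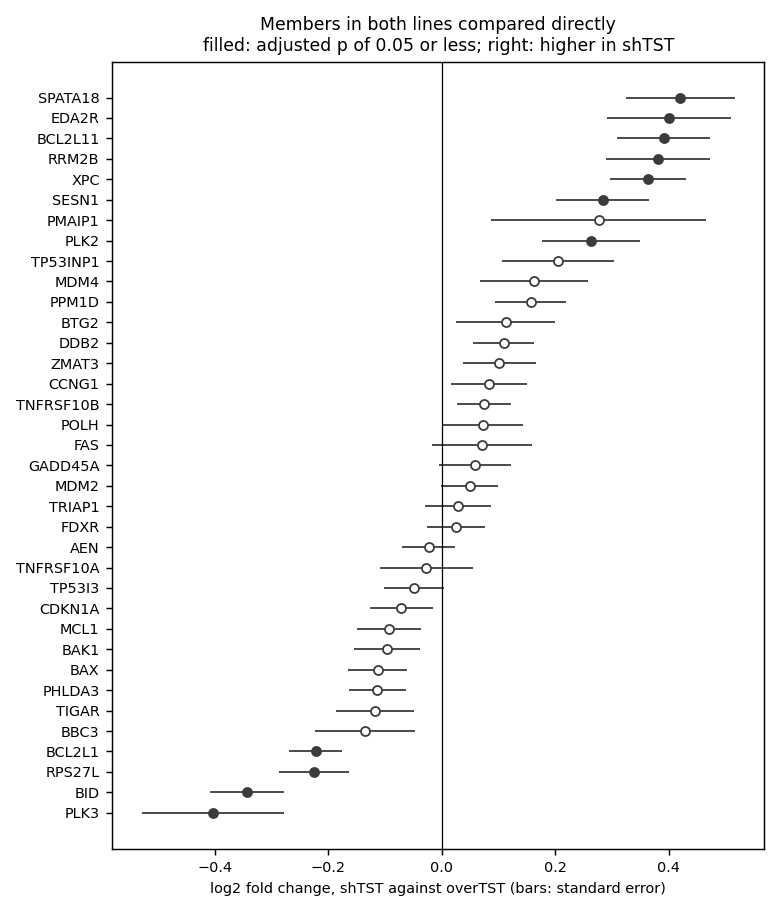
Log2 fold change of shTST against overTST for the 36 genes, ordered by value; bars are standard errors, filled points passed an adjusted p of 0.05 or less, and points to the right are higher in shTST. SPATA18 at 0.42 and PLK3 at −0.40 are the ends, and MDM2 at 0.049 lies near 0.

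Gene length moved with the changes in overTST. Across the 14421 genes tested the log2 fold change against WT fell with exonic length (Spearman's rho −0.404 across genes, which are not independent), against −0.09 for shTST. The 12 members that rose in overTST had a median exonic length of 3159 bases, and the 5 that fell one of 4941. With an offset from the length trend of each library, MDM2, of 13269 exonic bases, went from 0.32 to 0.50 (adjusted p = 2.63e-07) and RPS27L from 0.46 to 0.59 (adjusted p = 1.01e-06). MDM4 went from 0.16 to 0.33 and then passed (adjusted p = 0.0141), as did AEN (0.15), PPM1D (0.21) and, lower, EDA2R (−0.31). Calls of 4 higher members were lost, GADD45A at 0.12 (adjusted p = 0.133), TRIAP1 at 0.033 (adjusted p = 0.677), BAX at 0.061 (adjusted p = 0.381) and PLK3 at 0.29 (adjusted p = 0.0799). CDKN1A and BTG2 kept theirs at 0.31 (adjusted p = 2.08e-04) and 0.36 (adjusted p = 0.00358), and the falls of SPATA18, RRM2B, XPC and BCL2L11 remained at −0.42, −0.32, −0.26 and −0.23. The part of length in these differences was not tested beyond this correction.

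**Figure D5:**
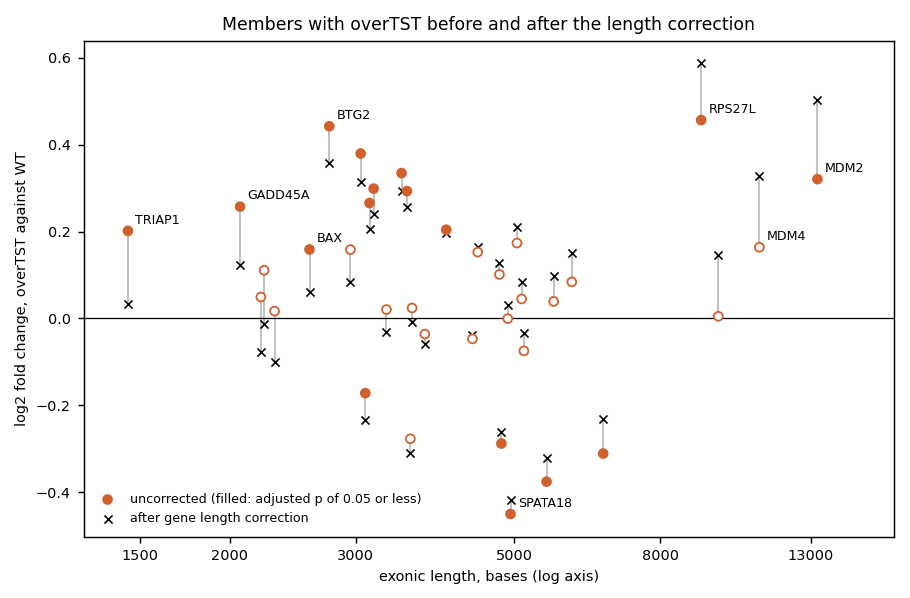
Log2 fold change of overTST against WT for the 36 genes by exonic length in bases (log axis), before (orange circles, filled where the adjusted p was 0.05 or less) and after (crosses) the gene length correction; a grey line joins both values of a gene. Short genes such as TRIAP1 move down, from 0.20 to 0.033, and long ones such as MDM2 move up, from 0.32 to 0.50.

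Other genes of the pathway, from lists drawn up by role with earlier results of these data known, moved in both directions. Of 28 other p53 targets tested in shTST, 5 rose and 5 fell, which is 35.7% beside 16.1% of all genes. PCNA, the replication clamp (0.32, adjusted p = 1.06e-04), and KITLG, the ligand of the KIT receptor (0.73, adjusted p = 1.33e-04), rose, while SLC12A4, a potassium-chloride cotransporter, fell (−0.33, adjusted p = 3.67e-04). In overTST 8 of 27 rose and 7 fell, which is 55.6% beside 33.9%. The median exonic length was 2796 bases for those that rose and 8298 for those that fell. The 3 smallest p belonged to the falls of SLC12A4 (−0.54, adjusted p = 1.00e-06), the helicase ASCC3 (−0.57, adjusted p = 1.06e-06) and THBS1, thrombospondin 1 (−0.50, adjusted p = 9.42e-06), and GDF15, a stress cytokine, rose by 0.53 (adjusted p = 2.64e-04) with groups that overlapped. With the gene length correction SLC12A4 was −0.42, ASCC3 −0.40 and THBS1 −0.37 in overTST (adjusted p = 1.24e-05, 3.04e-05 and 1.72e-04). Between the lines 8 of 28 were higher in shTST and 7 lower, which is 53.6% beside 33%. THBS1 and ASCC3 were higher there by 0.87 and 0.46 (adjusted p = 2.12e-09 and 7.00e-06), and GDF15 was lower (−0.85, adjusted p = 9.20e-07). The median of these targets was −0.044 in shTST and 0.012 in overTST, beside 0.004 and 0.0019 over all genes.

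Of 18 regulators and relatives of p53, 1 rose and 1 fell in shTST, which is 11.1% beside 16.1% of all genes. They were RFWD3, a ubiquitin ligase of the damage response (0.16, adjusted p = 0.016, lost without WT replicate 4 or shTST replicate 4), and, lower, PPP1R13L, the inhibitor iASPP (−0.40, adjusted p = 0.00505). In overTST 1 rose and 5 fell, which is 33.3% beside 33.9%, and the 5 that fell had a median exonic length of 12496 bases. The 3 smallest p belonged to TP53BP1 (−0.52, adjusted p = 1.29e-05), the damage kinase ATR (−0.43, adjusted p = 0.00131) and the kinase HIPK2 (−0.22, adjusted p = 0.00253). With the gene length correction TP53BP1 was −0.34 (adjusted p = 9.24e-04), ATR −0.25 (adjusted p = 0.0356) and HIPK2 −0.021 (adjusted p = 0.783). Between the lines 5 were higher in shTST and 1 lower, which is 33.3% beside 33%, including RFWD3 (0.29), the deacetylase SIRT1 (0.40) and TP53BP1 (0.36). With the gene length correction RFWD3 was 0.22, SIRT1 0.39 and TP53BP1 0.20 (adjusted p = 5.88e-04, 1.49e-04 and 0.0359).

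Among 10 other BCL2 family genes tested none passed in shTST by edgeR, DESeq2 or limma-voom, and none had an unadjusted p under 0.05. In overTST BMF, a BH3-only gene, fell (−0.74, SE 0.15, adjusted p = 3.62e-04) and BAD, another, rose (0.25, SE 0.076, adjusted p = 0.0134), which is 2 of 10 or 20% beside 33.9% of all genes. BMF was at 9.72, 14.96, 8.59 and 8.40 CPM in WT. Without WT replicate 2 its fall in overTST was smaller, at −0.50 (adjusted p = 0.00124). Between the lines 1 was higher in shTST (BMF, 0.54) and 2 lower (BAD, −0.25, and BNIP3, −0.20), which is 30% beside 33%. Both calls of BAD were lost with the gene length correction (0.086 in overTST and −0.11 between the lines, adjusted p = 0.398 and 0.224), that of BAD in overTST also without overTST replicate 2, and that of BNIP3 without shTST replicate 2 or 4 or overTST replicate 3 or 4. Of 24 caspases and caspase regulators, 2 rose and 2 fell in shTST, which is 16.7% beside 16.1%. The initiator CASP2 (0.34, adjusted p = 7.09e-04) and BIRC5, which encodes survivin (0.17, adjusted p = 0.0152), rose, while the receptor TNFRSF1A fell (−0.26, adjusted p = 4.07e-04). In overTST 4 rose and 2 fell, which is 25% beside 33.9%. The 3 smallest p belonged to CYCS, cytochrome c (0.20, adjusted p = 0.00219), DFFA, the inhibitor of the caspase-activated nuclease (0.15, adjusted p = 0.0234), and, lower, the decoy receptor TNFRSF10D (−0.32, adjusted p = 0.0295). DFFA lost its call without WT replicate 1 or 3 or overTST replicate 2, 3 or 4, and without the filter on low counts. TNFRSF10D was at 17.99, 27.7, 19.4 and 16.5 CPM in WT and 15.7, 15.5, 16.8 and 17.7 in overTST, with groups that overlapped, and was −0.13 (adjusted p = 0.246) without WT replicate 2. Its call was also lost without overTST replicate 1, 2 or 3 and with limma-voom. Between the lines 2 were higher in shTST and 6 lower, which is 33.3% beside 33%, with ENDOG, a mitochondrial nuclease, at −0.38, DFFA at −0.26 and CYCS at −0.16.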

How the data were processed

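RNA of 12 HepG2 libraries was sequenced by a service provider. The authors deposited whole-number read counts per Ensembl gene, not normalised, made per the submitters' processing notes with Trimmomatic 0.36, STAR 2.5.2b and featureCounts of Subread 1.5.2 on GRCh38. The annotation release and the strand setting are not given in the sources used here. Groups and replicate numbers came from the sample titles. Gene symbols were known for 56410 of 57500 identifiers.

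For shTST and for overTST the fit against WT used the 8 libraries concerned, and the test of both lines used all 12. After filterByExpr and TMM scaling, genes were tested with edgeR 4.0.16 (quasi-likelihood test) in R 4.3.3, and p-values were adjusted over all genes tested by Benjamini-Hochberg at 0.05. The standard error (SE) of a log2 fold change was taken from its F statistic. The prior count was 2. DESeq2 1.42.0, limma 3.58.1 (voom, robust), other normalisations and filters, a gene length offset (lowess span 0.3), the replicate number as a block, another choice of libraries in the fit, and leaving out each library in turn were alternatives. The fits were tested on simulated data with changes larger than that of any member. That test does not cover changes of the size seen in the members.

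The 36 genes and the other lists were chosen with earlier results of these data known. Values in every library are given for MDM2, BTG2, CDKN1A and, in each comparison with WT, the 5 called members with the smallest p in each direction. Other called members are given by their log2 fold change, and from each other list up to 3 genes with the smallest p. The limit of mismatches in the p53 site search was set after the data were seen. Replicates of a group differed by more than sampling noise, and no library was left out. The chi-square per gene of a pair of libraries was 5.87 to 35.3 in WT, 4.41 to 8.2 in shTST and 3.58 to 9.64 in overTST. Some genes of the other lists are not reported here and were left out of the counts of those lists.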

Additional observations from a re-analysis of the deposited data

Results flagged for a closer look

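Within groups of 4 libraries, the highest or lowest value stood far from the other 3 in 7 of 108 tests of the 36 genes in 3 groups (Dixon's test of the gap over the range). Chance flags about 1 in 20 groups, so 7 of 108 is near what chance gives. POLH was at 22.5 CPM in overTST replicate 3 against 18.7 to 19.1 in the others, and its call did not depend on that library. GADD45A was at 34.3 CPM in WT replicate 3 against 29.8 to 30.4, and at 34.6 CPM in shTST replicate 2 against 39.8 to 40.3. PHLDA3 was at 102.6 CPM in overTST replicate 1 against 113.6 to 115.3. EDA2R was at 5.83 CPM in shTST replicate 2 against 7.28 to 7.37. TNFRSF10B was at 107.1 CPM in WT replicate 2 against 95.8 to 97.2. FDXR was at 186.2 CPM in WT replicate 3 against 169.4 to 171.5. WT replicate 3 and shTST replicate 2 each gave 2 of these values.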

How the results depend on the processing

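The number of members that changed was 13 to 15 in shTST, 15 to 18 in overTST and 11 to 14 in the direct comparison over the alternatives other than leaving out a library. Leaving out 1 library gave 10 to 13, 12 to 17 and 9 to 14. Calls over all genes moved too. They numbered 2240 to 3125, 4105 to 5211 and 4142 to 5232 over the alternatives other than leaving out a library. Leaving out 1 library gave 1513 to 2336, 3979 to 5263 and 3986 to 5265 calls over all genes. In shTST the fewest members, 10, and the fewest calls over all genes, 1513, both came without shTST replicate 1. Members lower in shTST numbered 2, 1 with limma-voom and with upper-quartile normalization, where BID was lost, and 1 to 2 when a library was left out. They numbered 3, with MCL1 gained, without the filter on low counts, with a replicate block and with the gene length correction and replicate block. Members higher in overTST ranged from 8 to 13 and members lower in the direct comparison from 3 to 6 when a library was left out. TST in overTST was 0.0965 (adjusted p = 0.201) with the gene length correction and 0.0944 (adjusted p = 0.159) with the gene length correction and replicate block. The deviations of same-numbered libraries from their group means had correlations of −0.053 to 0.080. Those of libraries with different numbers had correlations of −0.106 to 0.078. Whether the numbers pair samples is not given in the sources used here. Over all genes a replicate block gave 2980, 5166 and 5232 calls in the 3 comparisons, against 2346, 4893 and 4907 without it. With a replicate block 15, 18 and 13 members changed, and with the gene length correction as well 15, 17 and 14. In that last fit MDM2 was lower in shTST than in overTST (−0.11, adjusted p = 0.0479), the reverse of its uncorrected 0.049, and the length correction alone also gave a negative value. Sign changes of values that passed in neither fit were not counted. PHLDA3 in shTST and BAX and TIGAR in overTST were lost without the filter on low counts, PLK3 in overTST with DESeq2 and CCNG1 in overTST with upper-quartile normalization, and PPM1D in overTST was gained under 5 alternatives. The cause of these shifts was not tested. Leaving out each library for the named genes of the other lists was chosen after seeing the data. PMAIP1, with the lowest count of the members, had their highest standard errors (0.185, 0.202 and 0.189 in the 3 comparisons).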
